A study of Cavia porcellus with 35 samples.

Results

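Corticotropin-releasing hormone (CRH), vasopressin, oxytocin and melanocortin signalling was examined in the medial prefrontal cortex (mPFC) of juvenile guinea pigs through 10 genes chosen by name. These are the peptide genes CRH, AVP, OXT and POMC, the CRH-binding protein gene CRHBP, and the receptor genes CRHR1, CRHR2, AVPR1A, OXTR and MC4R. Of the 10 symbols, 7 had rows among the 12100 gene symbols of the 4 count tables, and CRHR1, AVPR1A and OXTR were not analysed here. CRH was listed for F1 females, F2 females and F1 males but had no row in the F3 table, which held 6 of the genes.

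The mothers of the F1 animals were given the synthetic glucocorticoid (sGC) betamethasone, or saline as control, late in pregnancy. F1 and F2 males were then mated with non-experimental females, so that F2 and F3 animals belong to the paternal line and were not themselves exposed in the womb. RNA came from 35 animals killed at postnatal day 40, with 4 control and 4 sGC females in each of the F1, F2 and F3 generations and 5 control and 6 sGC F1 males. Each animal gave 1 library, animals were picked for sufficient RNA of good quality, and the strain is not given in the sources used here. By their labels, the groups of a table differed only in the treatment of the mothers of the F1 animals. All animals were intact, with no transgene or deletion named. Levels below are TMM-normalised CPM, read counts scaled to a common library size within 1 table. Each FDR comes from edgeR's quasi-likelihood test, adjusted over all genes of the table, unless another test is named. They are not corrected for transcript length, so that no gene is ranked against another.

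CRH, released by the paraventricular nucleus of the hypothalamus, starts the pituitary response to stress, and POMC, AVP and OXT are best known from hypothalamic neurons and the pituitary. Vasopressin acts beside CRH on the pituitary, oxytocin is known for its part in birth, milk release and social behaviour, and POMC is cut into ACTH, melanocortins and beta-endorphin. In cortex, CRH is made locally by interneurons. CRHBP holds secreted CRH away from its receptors, CRHR2 is the receptor that prefers urocortins, and MC4R is the brain melanocortin receptor known for its control of feeding. Glucocorticoids restrain CRH and POMC in the hypothalamus and pituitary.

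The members were detected at very different depths. The peptide genes AVP and CRH were covered by 6 to 38 and 4 to 48 reads per animal, and OXT by 12 to 119. MC4R had 7 to 49 reads, POMC 71 to 193, CRHR2 212 to 1230 and CRHBP 251 to 893. Library totals ranged from 12819964 to 31763585 reads assigned to genes, and the F1 males, with 25697953 reads or more, were the most deeply sequenced. For the low genes, counting alone sets much of the spread. In F1 control females, for instance, counting error was 27.0% of the mean of MC4R and 23.9% of that of AVP, against 6.04% for CRHBP. All 27 pairs of a listed gene and a table passed the filter on low counts, so none needed a separate test.

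The labels name the prefrontal cortex as source, whereas their extraction text names the paraventricular nucleus. The study's methods describe punches of cingulate area 1 and infralimbic cortex. Genes of excitatory neurons and interneurons were detected in every animal. SLC17A7, the vesicular glutamate transporter of cortical excitatory neurons, had 2561 to 51074 reads, SST, an interneuron peptide, 1074 to 4432, and GAD1, an enzyme of GABA synthesis, 2251 to 6752. NEUROD6, a gene of excitatory cortical neurons, had 111 to 3716 reads. The lowest count, at 7.42 CPM, was that of F1 control female 3, in which the paraventricular gene SIM1 had 179 reads. Of the paraventricular genes, SIM1 had 38 to 200 reads, while OTP and TRH had no row, and the cortical gene TBR1 had none either. HCRT, the orexin gene of the lateral hypothalamus, had 7 to 31 reads and GAL 2 to 21. HDC, also on the hypothalamic list and in all 4 tables, had 62 to 286. GHRH was listed only for F1 males, with 469 to 603 reads, and PMCH only for F3 females, with 4 to 11. Of 22 listed hypothalamic marker symbols, 5 had rows in F1 females, 6 in F2 females and 7 in each of the other groups. The choroid plexus, ependyma and pituitary list had no row in either F1 group and 1 in each of the others. AVP and OXT, which mark paraventricular and supraoptic neurons, had 6 to 38 and 12 to 119 reads per animal.

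**Figure D1:**
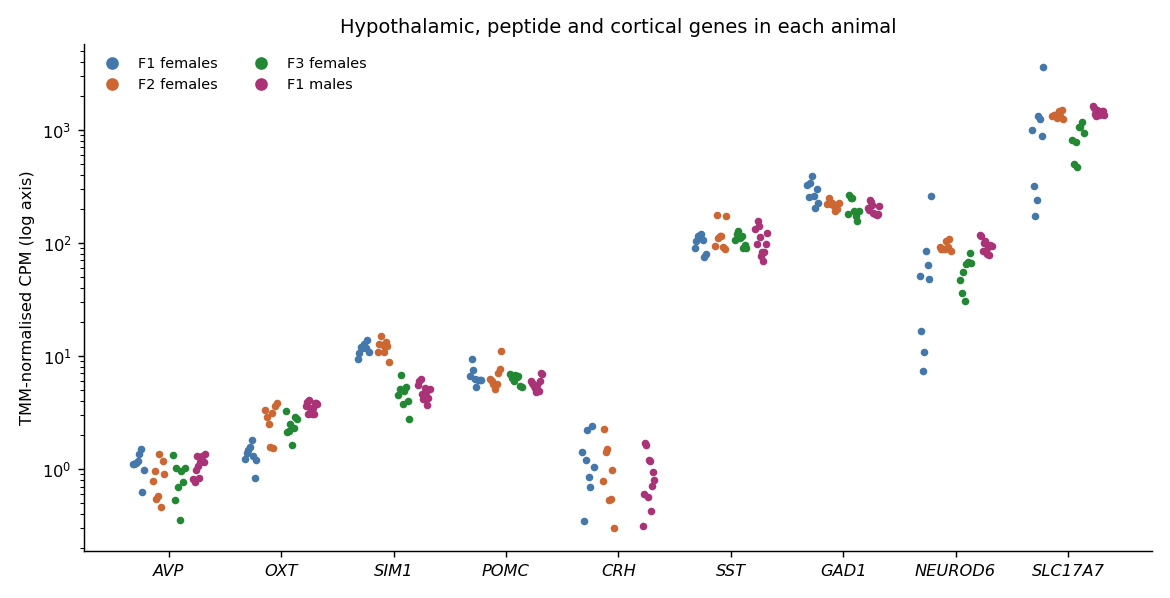
TMM-normalised CPM (log axis) of 9 peptide, hypothalamic and cortical genes, with 1 point per animal, coloured by generation and sex. AVP stays between 0.351 and 1.52 CPM in every animal, and SLC17A7 varies most among F1 females, from 171 to 3575 CPM. Heights are not corrected for length and are read within a gene.

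Several F1 control females stood apart in these markers. SLC17A7 was at 989, 317, 171 and 240 CPM in F1 control animals 1 to 4 and between 884 and 3575 CPM in the sGC animals (log2 fold change 2.03, FDR = 0.0571). The summed level of 11 listed striatal markers was 785 to 3095 CPM in F1 control and 421 to 809 CPM in F1 sGC females, and 6 of the 11 were lower at an FDR under 0.05. Control animals 1 and 4 had the highest sums, 3095 and 2867 CPM. DRD2, the dopamine receptor of striatal projection neurons, was at 13.4 to 179 CPM in F1 controls and 0.911 to 24.3 CPM in F1 sGC females. F3 females had a smaller contrast of the same kind, with SLC17A7 at 467 to 812 CPM for controls and 933 to 1169 CPM for sGC animals. In F1 males, SLC17A7 overlapped between the groups, but the 8 oligodendrocyte markers summed to 3271 to 6253 CPM for controls and 6995 to 11954 CPM for sGC animals, with 7 of the 8 higher. Because of the striatal sums, whatever differs in F1 females below was computed again without control animals 1 and 4, an alternative chosen after the data had been seen. The controls then left, at 317 and 171 CPM of SLC17A7, stood further from the sGC animals in that gene, so the omission is no check on the excitatory neuron marker. The part of tissue composition in the results was not tested, and in such bulk samples fewer cells of a type and less RNA per cell cannot be told apart.

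MC4R was the member with the clearest difference between sGC and control animals, in F1 females. The 4 controls had 10, 12, 16 and 17 reads, or 0.584, 0.83, 1.07 and 1.12 CPM. The sGC animals had 30, 34, 33 and 27 reads, or 1.95, 2.34, 2.28 and 1.89 CPM. Every sGC animal thus lay above every control, an arrangement that 23.2% of all tested genes also showed in this table, in either direction. The mean rose from 0.90 ± 0.245 CPM (SD, n = 4) to 2.12 ± 0.229 CPM (n = 4), a fold of 2.35 and a log2 fold change of 1.23 (SE 0.23, 95% confidence interval 0.70 to 1.76, FDR = 0.0127). Omitting any of the 8 animals kept the FDR under 0.05, as did 8 of 8 other analyses. Without control animals 1 and 4, the log2 fold change was 1.17 (FDR = 0.0342).

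In the other groups MC4R did not pass the test. F2 controls were at 0.498, 2.50, 0.783 and 0.86 CPM and F2 sGC females at 1.12, 0.691, 1.39 and 1.51 CPM. Control animal 2 alone lay above all sGC animals, and the log2 fold change was 0.02 with a 95% interval from -0.99 to 1.04. F3 controls were at 0.806, 0.732, 2.05 and 0.508 CPM and F3 sGC females at 2.05, 1.70, 0.97 and 1.10 CPM, again with 1 high control (log2 fold change 0.54, interval -0.41 to 1.49, FDR = 0.564). In F1 males, controls ranged from 0.813 to 1.72 CPM (median 1.29) and sGC animals from 0.58 to 1.17 CPM (median 0.96), a log2 fold change of -0.39 (SE 0.22, FDR = 0.314). The groups overlapped in F2 females, F3 females and F1 males. The F3 interval includes the 1.23 seen in F1 females, while that of F2 females ends at 1.04. Compared directly, the MC4R responses of F1 and F2 females did not differ at the threshold. Their difference was -1.22 (F2 minus F1, SE 0.55, interaction FDR = 0.146). Without control animal 2 of the F2 females, the log2 fold change there was 0.72.

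CRHBP, the secreted protein that binds CRH and urocortin, was the other member that differed in F1 females. Controls were at 17.5, 19.4, 17.6 and 16.5 CPM and sGC animals at 29.4, 31.5, 18.5 and 24.2 CPM. Sharing a range with the controls, sGC animal 3 lay below control animal 2, while the other 3 sGC animals lay above all controls. The mean rose from 17.8 ± 1.23 CPM (SD, n = 4) to 25.9 ± 5.80 CPM, and the log2 fold change was 0.54 (SE 0.15, FDR = 0.0428). This call was close to the threshold. Of the 8 omissions of an animal, it held in 1, that of sGC animal 3, with a log2 fold change of 0.68 and an FDR of 0.00991. The FDR was 0.133 at a log2 fold change of 0.51 without control animals 1 and 4.

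In F1 males CRHBP was lower in sGC animals by the sign of the fold change, without passing the threshold. Controls were at 27.8, 21.3, 29.7, 30.3 and 25.3 CPM, and the 6 sGC animals ranged from 20.8 to 23.7 CPM with a median of 22.2 CPM. Control animal 2 was inside the range of the sGC animals and the other 4 controls were above it. The log2 fold change was -0.28 (SE 0.08, 95% interval -0.46 to -0.09) with an FDR of 0.0566, against 0.0278 by the likelihood ratio test and 0.0239 by DESeq2. Leaving out control animal 2 gave -0.35 and an FDR of 0.0117. Of 15 interneuron markers, 3 were lower in the same sGC males and 0 higher, with a median log2 fold change of -0.22. SST, the interneuron peptide, was lower, at 88.4 ± 18.9 CPM (n = 6) against 128 ± 23.1 CPM (n = 5) (log2 fold change -0.54, FDR = 0.0345), and GAD1 was lower by a log2 fold change of -0.22 (FDR = 0.0293). The part of interneuron RNA in the CRHBP values was not tested. In F2 females, CRHBP overlapped between controls (24.9 to 37.6 CPM) and sGC animals (23.3 to 31.8 CPM), with a log2 fold change of -0.13. F3 controls had 19.8 to 36.0 CPM and F3 sGC females 30.5 to 40.7 CPM (log2 fold change 0.34, FDR = 0.35).

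CRHR2, the G protein-coupled receptor for urocortins and, more weakly, for CRH, had its tightest values in F2 females. Controls were at 31.3, 30.1, 31.2 and 30.04 CPM and sGC animals at 23.4, 23.4, 20.6 and 25.3 CPM. All 4 sGC animals lay below all 4 controls, and 8.09% of all genes tested in F2 females were likewise without overlap, in either direction. The means were 30.7 ± 0.681 CPM (SD, n = 4) and 23.2 ± 1.92 CPM (n = 4), a log2 fold change of -0.40 (SE 0.08, 95% interval -0.57 to -0.23). Its FDR was 0.0506, just over the threshold, in a table where 0.278% of 11132 genes passed. The likelihood ratio test gave an FDR of 0.000983 and DESeq2 0.00157, and over the 8 other analyses the call was made in 3. Leaving out F2 control animal 1 or sGC animal 2 brought the FDR to 0.0477 or 0.0246. Counting alone would give the F2 controls a coefficient of variation of 4.90%, and theirs was 2.22%, so their spread was less than counting error. Cortical markers of F2 females differed in both directions. The 9 upper-layer markers summed to 578 to 741 CPM for controls and 385 to 537 CPM for sGC animals, with 0 of 9 passing the test and a median log2 fold change of -0.72. The 15 listed interneuron markers summed to 1602 to 1694 CPM against 1456 to 1612 CPM, with a median of -0.11 and 1 of 15, TAC3, lower at an FDR of 0.0334. Among them VIP had a log2 fold change of -0.80 (FDR = 0.0578) and PVALB of 0.58 (FDR = 0.416). The 8 oligodendrocyte markers summed to 2953 to 4577 CPM for controls and 4422 to 10412 CPM for sGC animals, with 1 of 8 higher and a median of 1.11, and SLC17A7 overlapped between the groups. The part of these markers in the CRHR2 difference was not tested.

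CRHR2 in F1 females was spread widely, with controls at 26.4, 14.7, 19.3 and 23.9 CPM and sGC animals at 22.5, 22.7, 37.5 and 29.1 CPM. The groups overlapped, and the log2 fold change of 0.40 (SE 0.21, 95% interval -0.08 to 0.89) had an FDR of 0.214, or 0.0248 in the joint model of all 8 conditions. Without control animals 1 and 4, the highest controls for this gene, it was 0.74 with an FDR of 0.0753. The F3 groups overlapped, from 15.6 to 19.5 CPM for controls and from 18.4 to 20.3 CPM for sGC animals, with a log2 fold change of 0.13 and a 95% interval from -0.05 to 0.31. In F1 males, controls had 31.2 to 43.5 CPM (median 37.9) and sGC animals 29.4 to 36.9 CPM (median 31.7), a log2 fold change of -0.22 (SE 0.08, FDR = 0.11). Leaving out control animal 1 or sGC animal 6 of the males brought that FDR to 0.0425 or 0.0421.

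CRH itself, the peptide, was low in every group. In F2 females the controls had 11, 31, 18 and 21 reads, or 0.783, 2.28, 1.41 and 1.51 CPM. The sGC animals had 9, 7, 14 and 4 reads, or 0.53, 0.538, 0.972 and 0.302 CPM. Only sGC animal 3 reached into the range of the controls. The log2 fold change was -1.33 (SE 0.40, 95% interval -2.20 to -0.45), the largest in size of the 27 tested here, with an FDR of 0.139, and of 0.0187 by the likelihood ratio test and 0.0952 by DESeq2. The interneuron, upper-layer and oligodendrocyte markers of the same animals are those given above for CRHR2, and their part in the CRH values was not tested.

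CRH in the F1 animals overlapped between the groups. F1 control females were at 1.401, 0.346, 1.20 and 2.23 CPM and sGC females at 0.846, 0.689, 2.42 and 1.05 CPM, a log2 fold change of -0.06 with an interval from -1.28 to 1.16. This direction rested on the controls included, as it was 0.70 (FDR = 0.508) without control animals 1 and 4. F1 male controls ranged from 0.312 to 1.70 CPM and sGC males from 0.422 to 1.19 CPM, with a log2 fold change of -0.15 and an interval from -1.02 to 0.72. The spread of CRH between F1 control males, with a coefficient of variation of 67.7%, was well above the 19.1% that counting alone would give.

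POMC, the precursor of the melanocortins, had fold changes of opposite sign in F1 and F2 females, in neither case past the threshold. F1 controls were at 6.59, 9.34, 7.49 and 6.31 CPM and F1 sGC females at 5.34, 6.13, 6.16 and 6.09 CPM. All sGC animals were below all controls, and the log2 fold change of -0.32 (SE 0.15) had an FDR of 0.156, or -0.48 and 0.0746 without control animals 1 and 4. Microglial markers showed the same order in these animals, with sums of 234 to 283 CPM in controls and 175 to 197 CPM in sGC females, and 4 of the 5 tested were lower at an FDR under 0.05. F2 controls were at 6.27, 5.95, 5.64 and 5.09 CPM and F2 sGC females at 5.65, 6.99, 7.64 and 11.01 CPM, with animal 4 far above the rest (log2 fold change 0.44, SE 0.19, FDR = 0.293). That animal also had the highest microglial sum of the F2 females, and the part of microglial RNA in POMC was not tested. POMC of the other tables overlapped between the groups, at 6.00 to 6.91 CPM in F3 controls and 5.34 to 6.58 CPM in F3 sGC females (log2 fold change -0.12). F1 males had 5.20 to 5.97 CPM for controls and 4.80 to 6.998 CPM for sGC animals (log2 fold change 0.06).

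AVP and OXT, the vasopressin and oxytocin genes, did not pass the test in any group. AVP was at 1.11, 1.11, 1.14 and 1.18 CPM in F1 control females and 1.37, 1.52, 0.623 and 0.98 CPM in F1 sGC females, on 9 to 22 reads. The controls agreed more closely than counting would give, 3.123% against 23.9%, which at so few reads is no measure of their precision. Its log2 fold changes were -0.01 in F1 females, 0.47 in F2 females, -0.23 in F3 females and 0.24 in F1 males, and every 95% interval included 0. The widest of these intervals, in F3 females, ran from -1.08 to 0.62.

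OXT was at 1.23, 1.38, 1.47 and 1.58 CPM in F1 control and 1.82, 1.31, 0.831 and 1.19 CPM in F1 sGC females. In F2 females, controls ranged from 1.58 to 3.35 CPM and sGC animals from 1.54 to 3.85 CPM, and in F3 females from 2.13 to 3.22 CPM and from 1.64 to 2.91 CPM. F1 males had 3.07 to 4.04 CPM for controls and 3.05 to 3.84 CPM for sGC animals. The groups overlapped in all 4 tables. In F1 males, where OXT had 87 reads or more, the log2 fold change was -0.05 with a 95% interval from -0.29 to 0.19, the narrowest for this gene. The F1 females of both groups had less OXT than any F1 male, but the tables were counted separately, and table and generation or sex cannot be told apart.

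**Figure D2:**
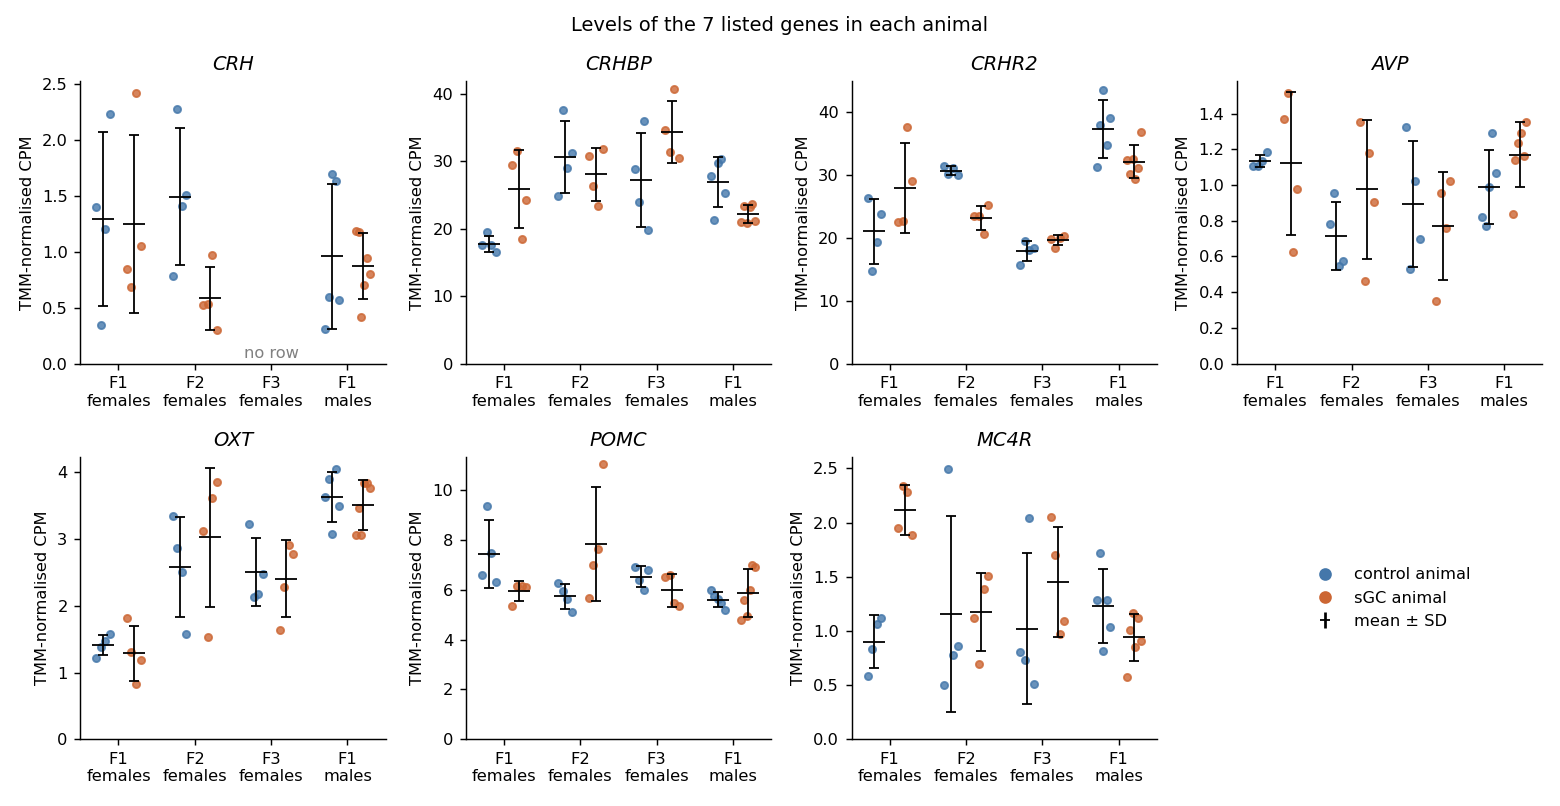
TMM-normalised CPM of the 7 listed genes in each control and sGC animal of the 4 tables, with bars for the mean ± SD (n = 4, or 5 and 6 in F1 males). MC4R in F1 females and CRHR2 in F2 females are the genes whose sGC and control animals separate most clearly, and POMC of F1 females separates as well. Each panel has its own axis from 0.

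Counted over the members, 2 of 7 differed in F1 females, both higher in sGC animals, where 16.5% of all 11268 tested genes differed, 9.21% higher and 7.33% lower. Unadjusted, the same 2 members had a p under 0.05, against 34.2% of all genes. In F2 females 0 of 7 passed the quasi-likelihood test, against 0.278% of all genes (0.153% higher and 0.126% lower). There, 3 members had an unadjusted p under 0.05 beside 16.1% of all genes, and 2 passed in the likelihood ratio test and 1 in DESeq2. In F3 females 0 of 6 passed by any of the 3 tests, the quasi-likelihood, likelihood ratio and DESeq2 tests, and 0 were under 0.05 unadjusted. Over all genes of the F3 table, 1.34% passed the quasi-likelihood test (1.07% higher and 0.271% lower), and 17.3% had an unadjusted p under 0.05. In F1 males 0 of 7 passed the quasi-likelihood test, against 9.22% of all genes (5.74% higher and 3.48% lower). Their count at an unadjusted p under 0.05 was 2, beside 25.2% of all genes, with 1 passing in each of the other tools. Members whose sGC and control animals did not overlap numbered 2 in F1 females, 1 in F2 females and 0 in F3 females and F1 males. Over all genes, 23.2%, 8.09%, 10.3% and 6.26% did not overlap in these 4 tables, in the same order. The median log2 fold change of the members was -0.01 in F1 females, 0.02 in F2 females, 0.03 in F3 females and -0.15 in F1 males, where the medians of all genes were -0.03, 0.01, -0.01 and 0.00. The counts over all genes themselves depended on single animals, and with 1 left out ran from 613 to 2115 in F1 females (1864 with all animals), from 0 to 487 in F2 females (31), from 20 to 598 in F3 females (153) and from 667 to 1613 in F1 males (1062). Without F1 control animals 1 and 4, 1 of 7 members differed in F1 females, MC4R.

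**Figure D3:**
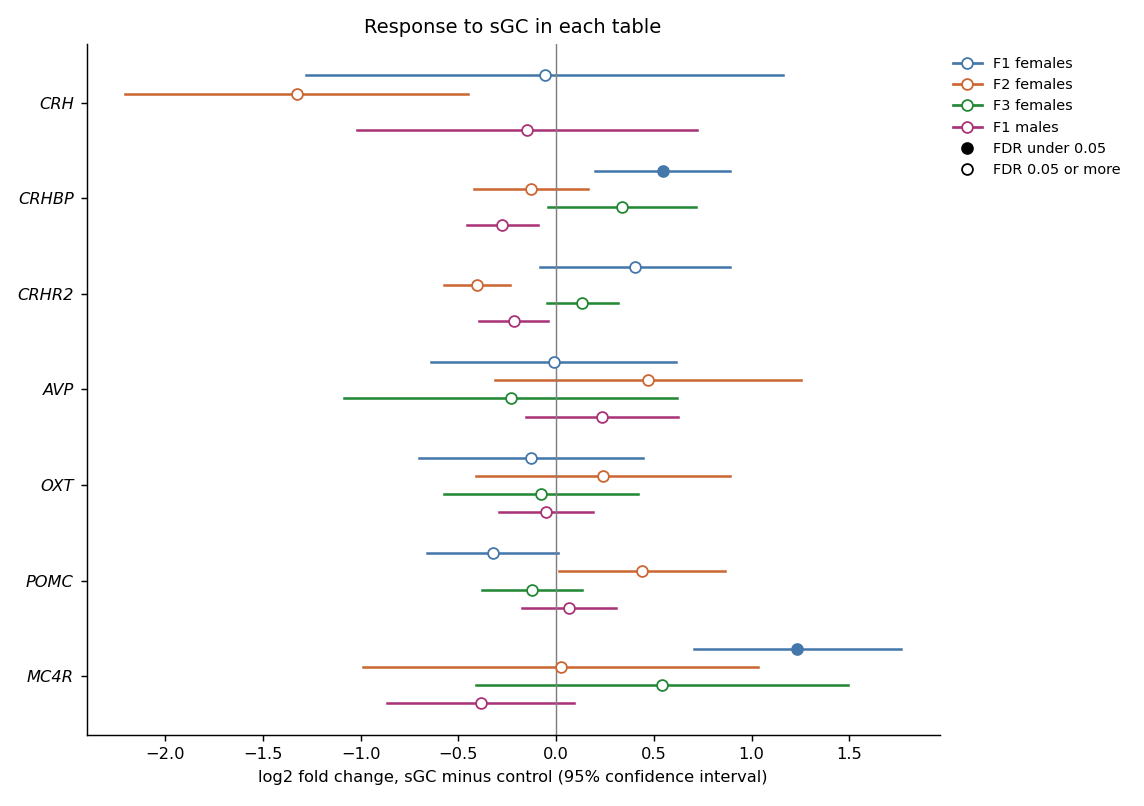
Log2 fold change between sGC and control animals with its 95% confidence interval, for each listed gene in each table. Filled points mark an FDR under 0.05, reached by MC4R (1.23) and CRHBP (0.54) in F1 females. Of the open points, CRHR2 and CRH in F2 females and CRHR2 and CRHBP in F1 males have intervals below 0, and POMC in F2 females has one above 0.

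The responses themselves were compared between groups as the treatment by table interaction. F1 females and F1 males differed for 3 of 7 members, where 31.7% of 11274 genes differed. The log2 fold change of the males was lower than that of the females by a difference of -1.63 for MC4R (SE 0.34, FDR = 0.00159), -0.83 for CRHBP (SE 0.17, FDR = 0.00167) and -0.63 for CRHR2 (SE 0.22, FDR = 0.0341). For these 3 genes sGC females were higher than their controls and sGC males lower than theirs by the sign of the fold change. The MC4R and CRHBP differences held when any of the 19 animals was left out, and that of CRHR2 in 11 of those 19 cases. The latter was lost without F1 female control animal 2 or 3, sGC animal 3 or 4, male control animal 3 or 5, or male sGC animal 2 or 4, with FDR values up to 0.0962. Without the 2 F1 control females named above, they were -1.55 for MC4R (FDR = 0.00563), -0.77 for CRHBP (FDR = 0.00859) and -0.95 for CRHR2 (FDR = 0.00373), and POMC differed as well, by 0.55 (FDR = 0.0343).

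F1 and F2 females differed for 2 of 7 members, against 13.8% of 11166 genes. The F2 response was lower by -0.81 for CRHR2 (SE 0.24, FDR = 0.0357) and by -0.68 for CRHBP (SE 0.22, FDR = 0.0483), and for POMC it was higher by 0.76 (FDR = 0.0543), over the threshold but under it without F1 control animal 1 or 4 or F2 sGC animal 1. These 2 calls were near the threshold and held in 5 and 3 of the 16 omissions of an animal. CRHR2 passed without F1 control animal 1 or 4, F1 sGC animal 1 or 2, or F2 sGC animal 2, and CRHBP without F1 sGC animal 3, F2 control animal 1 or F2 sGC animal 1. Without F1 control animals 1 and 4, CRHR2 differed by -1.15 (FDR = 0.00469) and POMC by 0.92 (FDR = 0.0311), whereas CRHBP had an FDR of 0.0979. F1 and F3 females differed for 0 of 6 members in the quasi-likelihood, likelihood ratio and DESeq2 tests alike, and 0 had an unadjusted p under 0.05. Of all genes, 0.0981% passed the quasi-likelihood test of this pair. MC4R, the member called in F1 females, had a difference of -0.71 between these generations (SE 0.51, FDR = 0.514). F2 and F3 females differed for 0 of 6 by the quasi-likelihood test, against 0.018% of genes, with 2 at an unadjusted p under 0.05 and 1, CRHR2, in the likelihood ratio test and in DESeq2. The CRHR2 responses of those generations lay 0.54 apart (SE 0.11, FDR = 0.0685, or 0.0425 without F3 control animal 1). The comparisons of F1 females with F1 males, F2 females and F3 females share the same F1 females.

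Levels also varied between tables among the controls. CRHR2 was lowest in F3 control females, at 17.9 ± 1.64 CPM (SD, n = 4), followed by F1 females at 21.1 ± 5.17 CPM, F2 females at 30.7 ± 0.681 CPM and F1 males at 37.3 ± 4.61 CPM (n = 5). The F3 and F1 females overlapped, the F1 females lay wholly below the F2 females, and the F2 females overlapped the lower end of the males. CRHBP was at 17.8 ± 1.23 CPM in F1 control females, below every other control group, and at 26.9 ± 3.71, 27.2 ± 6.93 and 30.7 ± 5.31 CPM in F1 males, F3 females and F2 females, which overlapped one another. MC4R, between 0.90 and 1.23 CPM in the control means of the 4 tables, overlapped throughout. These orders rest on tables that were normalised separately.

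Of the other ligands and receptors of the 4 systems, 9 of 11 had no row in any table. AVPR1B, the vasopressin receptor best known from the pituitary, was listed in all of them. It was at 4.09, 2.42, 1.47 and 1.97 CPM in F1 control and 7.42, 4.62, 7.20 and 16.7 CPM in F1 sGC females. Every sGC animal lay above every control, and sGC animal 4 stood far above the others. The log2 fold change was 1.84 (SE 0.44, FDR = 0.0265). It was 1.35 (FDR = 0.046) without sGC animal 4 and 2.23 (FDR = 0.0427) without control animals 1 and 4, and the call was lost without control animal 2, 3 or 4 or sGC animal 1, with FDR values between 0.0554 and 0.0725. In F2 females AVPR1B was at 7.95 ± 0.283 CPM among controls and 8.82 ± 1.15 CPM among sGC animals, in F3 females at 5.07 ± 0.518 and 6.27 ± 1.27 CPM, and in F1 males at 8.67 ± 0.948 and 7.49 ± 1.24 CPM, with no call. The F1 control females were thus the low group, and F1 sGC animal 4, the highest for AVPR1B, was also the highest for SLC17A7 at 3575 CPM. The part of excitatory neuron RNA in the AVPR1B difference was not tested. The response of F1 males differed from that of F1 females by -2.05 (interaction FDR = 0.00133). UCN2, which encodes the CRHR2 ligand urocortin 2, was listed for F3 females alone, where controls had 40.3 to 43.2 CPM and sGC animals 45.9 to 49.6 CPM (log2 fold change 0.21, FDR = 0.0707, or 0.0411 by the likelihood ratio test and 0.0352 by DESeq2).

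**Figure D4:**
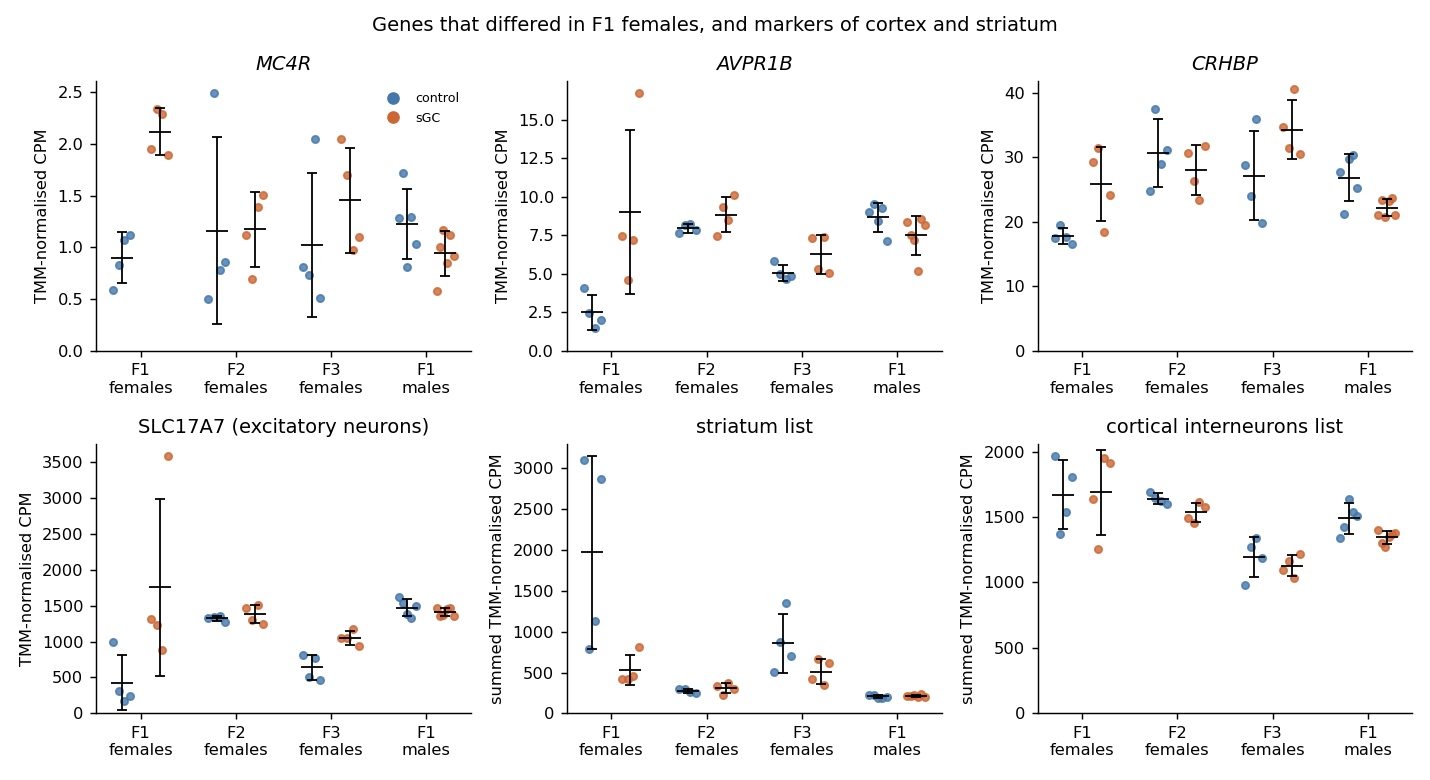
TMM-normalised CPM of MC4R, AVPR1B and CRHBP, and of the cortical marker SLC17A7 with the summed striatal and interneuron lists, in every animal, with bars for the mean ± SD. In F1 females AVPR1B and SLC17A7 are low in most controls, and the striatal sum is highest in 2 controls, at 2867 and 3095 CPM. MC4R is evenly high in the 4 F1 sGC females, at 1.89 to 2.34 CPM.

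The enzymes that cut, modify or break down these peptides were all listed, 9 of 9. In F1 females 2 rose and 1 fell, a table in which 16.5% of all genes passed. PCSK1, the convertase that cuts POMC into ACTH, rose from 100 ± 34.3 to 167 ± 28.9 CPM (log2 fold change 0.74, FDR = 0.0482). LNPEP, the aminopeptidase that breaks down oxytocin and vasopressin, rose from 66.6 ± 3.25 to 94.5 ± 2.26 CPM (0.51, FDR = 0.00356), and MME, the peptidase neprilysin, fell from 16.4 ± 2.34 to 12.4 ± 1.21 CPM (-0.41, FDR = 0.0484). The median log2 fold change of the 9 was 0.11, against -0.03 for all genes. LNPEP kept its call whichever of the 8 animals was omitted, PCSK1 in 1 case and MME in 0, and without control animals 1 and 4 the FDR of MME was 0.137. By the quasi-likelihood test, 0 of 9 passed in each of the other tables, where 1, 3 and 3 had an unadjusted p under 0.05 in F2 females, F3 females and F1 males. The likelihood ratio test called 0, 2 and 0 of them and DESeq2 0, 3 and 1. The accessory and modulating proteins of melanocortin receptors, 4 of 5 listed, had 0 calls in any table by the quasi-likelihood test. Their unadjusted p was under 0.05 for 3, 0, 2 and 1 genes in F1, F2 and F3 females and F1 males, and the likelihood ratio test called 0, 0, 1 and 0 and DESeq2 2, 0, 1 and 0.

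Downstream of the receptors, 17 of 20 symbols were listed, and 4 rose and 2 fell in F1 females, where 9.21% of all genes were higher and 7.33% lower, with a median log2 fold change of 0.08 over the 17. GNAS, the stimulatory G protein through which MC4R and CRHR2 signal, rose by a log2 fold change of 0.32 (FDR = 0.0226), and the adenylyl cyclase ADCY2 by 0.68 (FDR = 0.00721). PLCB1, the phospholipase of the vasopressin and oxytocin receptors, rose by 0.40 (FDR = 0.0267), and the receptor kinase GRK2 by 0.37 (FDR = 0.00432). ADCY5, the cyclase abundant in striatum, fell from 370 ± 117 to 173 ± 30.1 CPM (-1.10, FDR = 0.015), and RGS2, a regulator of G protein signalling, fell by 0.79 on the log2 scale (FDR = 0.00431). PLCB1 kept its call in 2 and GNAS in 6 of the 8 omissions of an animal, and the other 4 genes in 8 of 8. All 6 passed without control animals 1 and 4, with ADCY5 then at -0.67 and GNAS at an FDR of 0.0499. In F3 females 2 genes passed, again GNAS (0.33, FDR = 0.047) and ADCY2 (0.41, FDR = 0.0216), against 1.34% of all genes. In F1 males the protein kinase A subunits PRKACB (-0.24, FDR = 0.0189) and PRKAR2B (-0.19, FDR = 0.0366) fell. Over all genes of the F1 males, 9.22% passed and 3.48% were lower. In F2 females 0 of 17 passed by any of the 3 tools, edgeR with either test or DESeq2, and 4 had an unadjusted p under 0.05. The difference between the responses of F1 females and F1 males was -0.34 for GNAS (interaction FDR = 0.00168) and -0.68 for ADCY2 (interaction FDR = 0.000463). GNAS and ADCY2 of F3 females kept their calls in 1 and 3 of the 8 omissions of an animal, and PRKACB and PRKAR2B of F1 males in 9 and 3 of 11.

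Across the 35 animals, after the mean of each table and treatment had been taken off, AVP and OXT went together (Pearson r = 0.71, Spearman rho = 0.63, across 35 animals). AVP and OXT lie next to each other in the RefSeq annotation of the guinea pig genome, with 0 genes between them. The coefficient was 0.66 without the 2 animals farthest out in OXT, and 0.83, 0.77 and 0.78 within F1, F2 and F3 females but 0.35 within F1 males. OXT was the gene most like AVP of 10725 genes, and AVP the second most like OXT, after TMEM37 (r = 0.72). Both are low genes, with 6 to 38 reads of AVP and 12 to 119 reads of OXT per animal. These coefficients are descriptions and carry no test, as are those that follow.

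Marker lists were scored here by the mean log2 CPM deviation of their genes tested in all 4 tables, each gene counting equally. These were 12 interneuron, 7 oligodendrocyte, 7 upper-layer and 5 microglial genes. CRHR2 varied with the interneuron score, with r = 0.74 and rho = 0.69 over the 35 animals. The value was 0.71 without the 2 animals farthest out, and 0.87, 0.29, 0.69 and 0.79 within F1, F2 and F3 females and F1 males. CRHR2 went against the oligodendrocyte score (r = -0.63, and -0.89, -0.39, -0.87 and -0.22 within the same 4 tables). With the upper-layer score r was 0.67, and 0.89, -0.24, 0.74 and 0.55 within them, so the sign turned in F2 females. CRHBP, although it binds the same peptides, had r = -0.39 with CRHR2 over all animals, and -0.82, 0.39, -0.22 and -0.24 within the 4 tables. POMC varied with the microglial score at r = 0.73 and rho = 0.50, with r falling to 0.59 without the 2 animals farthest out. Within F1, F2 and F3 females and F1 males its r was 0.76, 0.87, -0.01 and 0.70. The genes most like CRHR2 were SPTB, TENM4 and CACNA1I (r = 0.86, 0.86 and 0.85), and those most like CRHBP were XKR4, VWC2 and SH3GL2 (0.83, 0.81 and 0.79). For POMC they were CAPN10, ACSF2 and TAPBPL (0.73, 0.72 and 0.71), and for MC4R RABGGTB, HPRT1 and FLVCR1 (0.67, 0.61 and 0.61). AVP and OXT had TIMM21 and BCL2L1 (0.65 and 0.64) and FHDC1 (0.67) as their remaining nearest genes. A total of 6 such relations were computed beside the ranking of genes.

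**Figure D5:**
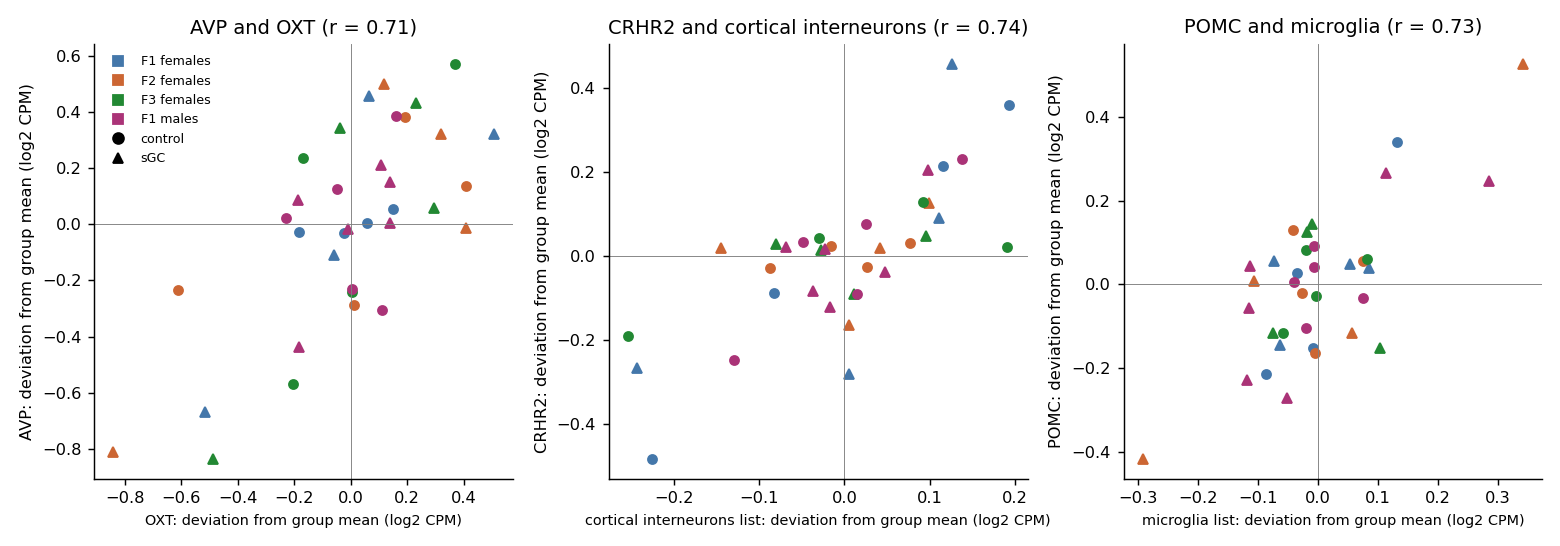
Deviations of log2 CPM from the mean of each table and treatment, with 1 point per animal (n = 35), for AVP against OXT, CRHR2 against the summed interneuron markers and POMC against the summed microglial markers. Circles are control and triangles sGC animals. The 3 Pearson coefficients are 0.71, 0.74 and 0.73, and the POMC panel leans on its farthest F2 sGC animals at either end.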

How the data were processed

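RNA of mPFC punches from 24 female and 11 male guinea pigs was sequenced by the authors as 1 single-end library per animal. The submitters' processing notes name TopHat2 and edgeR, while the read counter and the genome build are not given in the sources used here. The authors deposited, for each of the 4 groups of animals, a table of raw, unnormalised read counts with 1 row per gene symbol. The tables also hold the authors' own dispersion, log2 fold change, mean log2 CPM, likelihood ratio, p-value and FDR columns from edgeR, which were not used. Symbols with no row were not analysed. All 10 symbols were matched in the RefSeq table, which was used for names and gene order only.

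The counts entered edgeR 4.0.16 (limma 3.58.1, R 4.3.3). Genes were kept by filterByExpr (minimum count 10, minimum total 15), TMM factors were applied, and the quasi-likelihood test compared sGC with control animals inside each table. P-values were adjusted over all genes by the method of Benjamini and Hochberg, with a threshold of 0.05. The SE is the log2 fold change divided by the square root of F. Responses were compared between tables as interactions, for 4 pairs. The p-values set the difference between groups against the spread between animals, which edgeR estimates with information shared across genes. Female animals came from separate litters; for males this is not stated.

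The members and lists were chosen with earlier results of these data known. Genes are named by a rule: all members, every pathway gene with an FDR under 0.05 in at least 1 table, the other ligands and receptors, named markers, and the 3 genes most correlated with each member listed in all tables (log2 CPM, prior count 2). Where a printed value lies outside these, it was picked after values were seen. Alternatives were the likelihood ratio test, DESeq2 1.42.0, RLE and upper-quartile scaling, no filter, a CPM minimum of 1, the replicate number as a block, 1 joint model of the 8 conditions, and the omission of each animal. No 2 libraries of a table were identical. In the closest pair, of F1 males, the gene counts differed by 3.36% of the reads, with no comparison to sampling noise. The scripts were tested on simulated data. No sequences are shown. Some marker genes are not reported here.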

Additional observations from a re-analysis of the deposited data

Results flagged for a closer look

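The POMC level of sGC animal 1 of the F1 females, 5.34 CPM, lay apart from the other 3 animals of its group, which were between 6.09 and 6.16 CPM. The reads were 82 in animal 1 and 89, 89 and 87 in animals 2 to 4. The coefficient of variation of the group, 6.68%, was below the 10.7% that counting alone would give, so the gap is within counting error. Animal 1 was the only such sample among 54 groups of a gene and a condition, with 4 to 6 animals each. By chance, about 1 in 20 groups is set apart in this way.

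The response to sGC differed between F1 females and F1 males in the interaction test for CRHR2, by -0.63 on the log2 scale (males minus females), for CRHBP, by -0.83, and for MC4R, by -1.63. It differed between F1 and F2 females for CRHR2, by -0.81 (F2 minus F1), and for CRHBP, by -0.68. F1 females enter all 5 differences, and the striatal and excitatory neuron markers of F1 control females, given in the report, differ from those of the other groups. Their part in these differences was not tested.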

How the results depend on the processing

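The number of members with an FDR under 0.05 was 2 in F1 females and became 1 with upper-quartile scaling, with the replicate block and without control animals 1 and 4, 3 in the joint model, which also called CRHR2 (FDR = 0.0248), and 1 to 2 when 1 animal was left out. In F2 females it was 0, and 2 by the likelihood ratio test, 1 by DESeq2, 1 with no filter, and 0 to 1 without 1 animal. In F1 males it was 0, and 1 by the likelihood ratio test, 1 by DESeq2, and 0 to 1 without 1 animal. Of the interactions, F1 with F2 females had 2, 3 by the likelihood ratio test and by DESeq2, 1 with the replicate block and 0 to 2 without 1 animal. POMC was called there by the first of these (FDR = 0.0389), by DESeq2 (0.0421) and with upper-quartile scaling (0.0492), which cost CRHBP its call (0.0649). F2 with F3 females had 0, 1 by the likelihood ratio test, 1 by DESeq2 (which gave an adjusted p for 4 members) and 0 to 1 without 1 animal. There was no sign that the same replicate numbers in control and sGC animals marked pairs. The deviations of 17 same-numbered animals correlated between -0.33 and 0.34, and 1, 0, 1 and 0 controls of the 4 tables were most like their own number. With so few animals per group, this check cannot exclude pairing. The block cost CRHBP its call in F1 females and in F1 with F2 females. It changed no other call of a member.

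The direction turned for log2 fold changes near 0. AVP in F1 females was 0.00356 by DESeq2, 0.00334 with RLE scaling and 0.0257 without control animals 1 and 4, and CRH was 0.70 without those controls. The CRH difference between F1 females and males was 0.0291 with the replicate block. Leaving out 1 animal gave ranges from -0.59 to 0.33 for CRH, -0.19 to 0.18 for AVP and -0.34 to 0.0325 for OXT in F1 females, and -0.23 to 0.72 for MC4R in F2 females. They ran from -0.41 to 0.0337 for AVP and -0.18 to 0.0732 for OXT in F3 females and from -0.36 to 0.15 for CRH in F1 males. The differences of responses ranged from -0.48 to 0.44 for CRH and -0.0937 to 0.29 for OXT between F1 females and males, from -0.41 to 0.0299 for AVP and -0.10 to 0.27 for OXT between F1 and F3 females, and from -0.18 to 1.09 for MC4R between F2 and F3 females. The causes were not tested.

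Over all genes, 1038 of 1864 calls were higher in F1 sGC females, and 803 of 1891 with upper-quartile scaling. The replicate block gave 1080 calls there and the joint model of all conditions 3327. F2 females had 31 calls, and 534 by the likelihood ratio test, 473 by DESeq2, 70 with upper-quartile scaling, 76 with no filter, 53 with the block and 10 in the joint model. F3 females had 153, and 616, 624, 67 and 396 by the likelihood ratio test, DESeq2, the block and the joint model. F1 with F3 females had 11, and 114, 196, 18 and 0 by the likelihood ratio test, DESeq2, upper-quartile scaling and the block, and F2 with F3 females had 2, and 93, 126, 4 and 9 by the same 4. With 1 animal left out, F1 with F2 females had 808 to 1906 (1536 with all animals), F1 with F3 females 1 to 97 and F2 with F3 females 0 to 44. The low read counts of CRH, AVP, MC4R and OXT limit what could be detected for them.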

Other observations

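UCN2 had 591 to 926 reads per animal in F3 females and GHRH 469 to 603 in F1 males, and neither had a row in the other tables, which held 11478, 11362, 11651 and 11720 gene symbols for F1, F2 and F3 females and F1 males. CRH, with up to 48 reads per animal in the other groups, had no row for F3 females. A missing row was therefore not read as a low level.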
